A study of Homo sapiens with 12 samples.

Results

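The 40 genes described here make up an ATF4 amino acid stress response. They were chosen by symbol from general knowledge of the pathway, with earlier results of these data known. All 40 were found among the 19677 genes listed in the count files. Their RNA was measured by sequencing in CAOV3 cells, an established human cell line from a high-grade serous cancer of the ovary. The 12 libraries fell into 4 groups of 3, and the wild-type line was the same in all of them. Control cells received DMSO, the solvent, for a time that is not stated. Ascites cells received DMSO together with 10% ascites from ovarian cancer, for 16 hours. Bezafibrate cells received 200 uM of the drug for 16 hours, and combination cells received 200 uM of the drug and 10% ascites for the same time. Ascites is fluid that collects in the abdomen of patients, and bezafibrate belongs to the fibrates, lipid-lowering drugs that activate the PPAR nuclear receptors. DMSO is named for control and ascites cells alone, so a drug effect and any solvent difference cannot be told apart. In comparisons against control, treatment and any difference in time cannot be told apart either. Whether replicates were separate cultures, and how many ascites samples were used, is not stated, so SDs and p-values measure only the spread between these libraries.

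ATF4 is the transcription factor of the integrated stress response. Kinases that sense amino acid shortage, haem shortage, viral RNA or misfolded protein phosphorylate the initiation factor eIF2, which slows protein synthesis in general but lets ATF4 mRNA be translated more. ATF4, often paired with a C/EBP protein, then raises genes that make, import and charge amino acids, and genes that feed back on the response. Much of the control of ATF4 itself is on its translation, which RNA counts do not measure.

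Levels are in CPM, counts scaled to library size by TMM. On the first principal component of log2 CPM (37.0% of the variance) the 6 drug libraries lay apart from the other 6. Total counts per library ran from 11831093 to 18762759, and the 40 genes held between 0.574% and 0.586% of them. The PPAR targets PDK4, ANGPTL4, PLIN2 and CPT1A, read beside the drug labels, all rose, by 4.07, 3.63, 2.72 and 0.97 on the log2 scale. These genes were known from earlier results of these data, so their rise is no independent check of the labels. Combination replicate 3 lay at -22.4 on the second component (9.88% of the variance) and the other 11 libraries between -4.37 and 9.84, so counts without it are given below. The keratins KRT7, KRT8 and KRT18 and EPCAM were abundant (27.6 CPM or more in the mean of the control libraries), while the tumour markers PAX8, WT1 and MUC16 were low (PAX8 at 0.378 CPM in control cells, WT1 and MUC16 at 15 and 10 counts in all libraries together) and SOX17 had no count. Of 6 leukocyte markers 5 had no count in any library, and the summed level of the list was at most 3.91 CPM. The summed level of 4 fibroblast markers ran from 186 to 196 CPM without the drug and from 159 to 177 CPM with it, nearly all of it LUM, and the 3 tested (COL1A1, COL3A1 and LUM) fell with the drug. Of the 5 epithelial and serous markers tested, KRT7 and PAX8 rose with it, by 0.56 (SE 0.0213, edgeR adjusted p 2.61e-22) and 1.07 (SE 0.35, edgeR adjusted p 0.0189), and none fell. Red cell and platelet markers summed to at most 1.41 CPM and mesothelial markers to at most 2.46 CPM. In bulk RNA fewer cells of a type and less RNA per cell cannot be told apart, and the part of these markers in the results below was not tested.

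The C/EBP-ATF response element, which ATF4 and a C/EBP partner bind together, was searched as TGATGNAA on both strands from 250 bases before to 50 bases after each RefSeq start (GRCh38.p14). Among the 34 members with a promoter in the table, 12 (35.3%) held it, against 1217 of 27305 genes (4.46%). Members were chosen as genes of the ATF4 response, so a share above that of all genes is no independent result. GPT2, SLC7A11 and SHMT2, which rose with bezafibrate, had no promoter in the table. By window the shares were 12 of 55 (21.8%) for the members and 1270 of 35116 (3.62%) for all promoters. The stretches below show the match, in capitals, in 4 members that rose with bezafibrate and in AARS1 and SLC1A5, which were not called. All are printed 5′ to 3′ on the transcript's strand, and in CHAC1 and AARS1 the motif lies on the opposite strand.
ASNS: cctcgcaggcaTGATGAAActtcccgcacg
CEBPG: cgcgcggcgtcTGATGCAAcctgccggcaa
JDP2: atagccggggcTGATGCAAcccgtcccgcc
CHAC1: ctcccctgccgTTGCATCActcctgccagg
AARS1: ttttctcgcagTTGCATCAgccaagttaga
SLC1A5: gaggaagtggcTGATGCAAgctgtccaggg
The ASNS stretch is chr7:97872458-97872487 (minus strand), with the motif's first base 68 bases before the start. CEBPG is chr19:33374060-33374089 (plus), 42 bases before, and JDP2 is chr14:75427995-75428024 (plus), 16 bases before. CHAC1 is chr15:40953251-40953280 (plus), 209 bases before. AARS1 is chr16:70289675-70289704 (minus), 187 bases before, and SLC1A5 is chr19:46784893-46784922 (minus), 97 bases before. Of members not called with the drug 6 of 17 held the match (35.3%), of those that rose 4 of 13 (30.8%) and of those that fell 1 of 3 (33.3%), and the difference between these shares was not tested. A match is a description of these letters and not evidence of binding.

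Bezafibrate moved many of the 40 genes by small amounts, mostly upwards. Of the 40, 38 had enough counts to be tested. A gene was called at an edgeR quasi-likelihood adjusted p under 0.05, with adjustment over all 12470 genes tested. Any difference among the 4 groups was called for 12 members (31.6%), against 20.9% of all genes tested. These were ATF4, CEBPB, CEBPG, TRIB3, PPP1R15A, DDIT4, MTHFD2, ASNS, GPT2, PCK2, SLC7A11 and SLC38A2. Without combination replicate 3 the number was 14.

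Without ascites, 10 members rose with bezafibrate and 1 fell, PPP1R15A, while the background was 10.1% of all genes higher and 7.55% lower. The risers were CEBPB, ASNS, GPT2, TRIB3, CEBPG, SLC7A11, MTHFD2, ATF4, DDIT4 and PCK2. In ascites, 8 members rose with bezafibrate and none fell, against a background of 10.5% higher and 7.29% lower. These were CEBPB, GPT2, ASNS, ATF4, TRIB3, MTHFD2, DDIT4 and CEBPG, and the libraries of MTHFD2 and CEBPG overlapped. The median log2 fold change of the 38 was 0.07 without ascites and 0.08 in ascites, while that of all genes was -0.0037 in each. The group means compared come from separate libraries, control and bezafibrate in the first comparison and ascites and combination in the second. Both comparisons share the estimate of the spread from the same fit, so their calls are not independent. Single libraries weighed on both counts. Without control replicate 2 the 11 became 5, without ascites replicate 1 the 8 became 3, and without combination replicate 3 the counts were 15 and 8. Over all genes tested, the drug without ascites gave 1257 higher and 942 lower, and 1768 in total without control replicate 2. The drug in ascites gave 1305 higher and 909 lower, and 1742 in total without ascites replicate 1. The members' counts thus fell by a larger share than those of all genes. Without combination replicate 3 the totals were 2556 and 2118. In ascites the split of 8 higher and 0 lower became 7 and 1 with RLE scaling and 6 and 3 with upper-quartile scaling. Of all called genes 57.5% and 49.3% were then higher.

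Averaging the drug effect over both media uses all 6 libraries with the drug and all 6 without it. Then 16 members rose and 3 fell, or 50% of the 38, against 15% of all genes higher and 13.2% lower. The genes of this background were not matched to the members by level, and the part of level in these shares was not tested. Their median change was 0.06 on the log2 scale, beside -0.0047 for all genes tested. Sizes were small. Only CEBPB passed a fold of 1.5 in either medium, and the median absolute change of the called members was 0.17, beside 0.21 for all called genes. Without combination replicate 3 the counts were 19 higher and 3 lower. All genes called then numbered 3620, beside 1876 higher and 1649 lower in the main fit. With upper-quartile scaling 13 were higher and 5 lower: CHAC1, PHGDH and SHMT2 were then not called, and ATF5 and SLC7A5 were called lower. Of all genes called with that scaling 43.3% were higher.

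**Figure D1:**
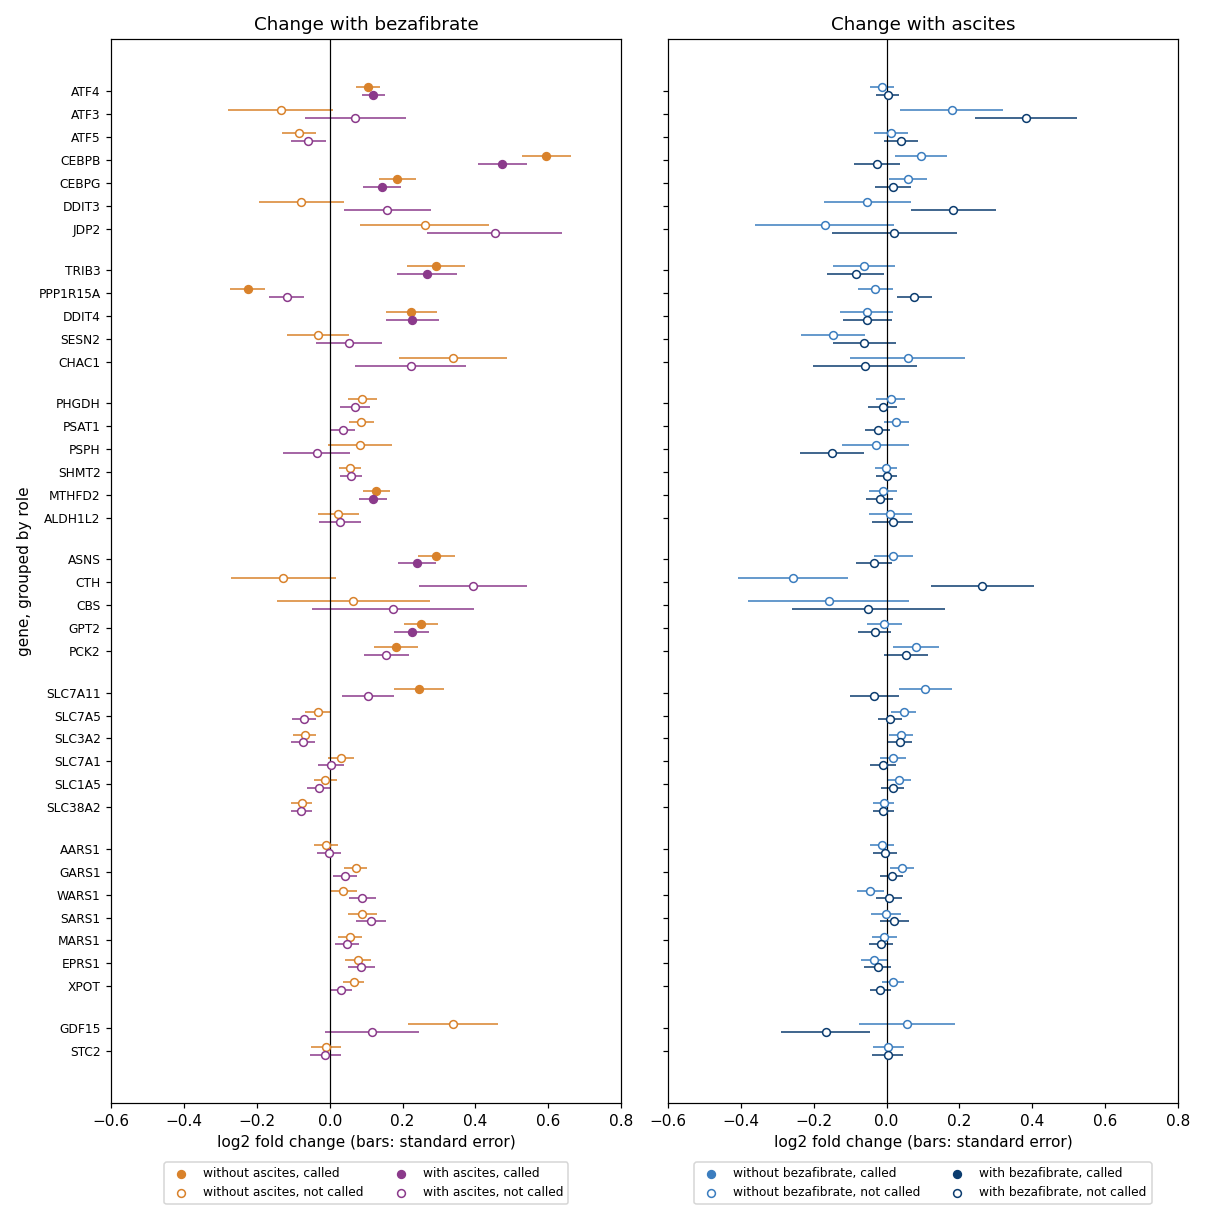
Log2 fold change of the 38 tested members, grouped by role, with bezafibrate (left, without and with ascites) and with ascites (right, without and with bezafibrate). Points are edgeR estimates, bars are standard errors, and filled points are called at an adjusted p under 0.05. On the left 11 and 8 points are filled, with CEBPB farthest from 0 at 0.60 and 0.47, and on the right no point is filled.

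The largest averaged change with bezafibrate among the 38 tested members was that of CEBPB, a transcription factor. Of the 7 transcription factors tested, 4 rose with bezafibrate averaged over both media (ATF4, CEBPB, CEBPG and JDP2), none fell and 3 were not called. For all genes tested the shares were 15% higher and 13.2% lower. CEBPB (ENSG00000172216.6), a C/EBP factor that pairs with ATF4 and also acts in fat cell differentiation and inflammation, stood at 42.8, 44.2 and 39.1 CPM in control libraries and 45.5, 46.4 and 43.1 in ascites. It stood at 60.4, 64.4 and 66.2 CPM with bezafibrate and at 64.7, 68.5 and 53.7 with both. All 6 libraries with the drug lay above all 6 without it, and the lowest of them was combination replicate 3. The averaged change was 0.53 on the log2 scale (SE 0.0471, edgeR adjusted p 1.23e-10), and without ascites it was 0.60 (fold 1.51).

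ATF4 itself (ENSG00000128272.18) moved little but with a narrow spread. It stood at 250, 246 and 243 CPM in control libraries, 238, 252 and 242 in ascites, 258, 267 and 270 with bezafibrate and 262, 266 and 268 with both. Again no library with the drug overlapped one without it. The averaged change was 0.11 (SE 0.0225, edgeR adjusted p 1.42e-04). CEBPG, a small C/EBP factor that dimerises with ATF4, stood at 63.0, 56.8 and 59.9 CPM in control libraries, 62.5, 60.0 and 64.7 in ascites, 68.8, 69.7 and 65.7 with bezafibrate and 70.3, 64.5 and 71.8 with both. Combination replicate 2 lay just below ascites replicate 3, so the groups overlapped in ascites but not without it. It changed by an average of 0.16 (SE 0.0363, edgeR adjusted p 4.97e-04). In ascites alone its change of 0.14 passed at an edgeR adjusted p of 0.0497 and was lost in 15 of 19 alternative analyses.

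JDP2, a bZIP repressor of the AP-1 family, was low, at 2.76 to 4.61 CPM without the drug and 3.97 to 5.34 with it. Its libraries overlapped, and the averaged change of 0.36 (SE 0.128, edgeR adjusted p 0.033) was lost in 8 of 18 alternatives. The factors tied to cell death and acute stress were not called. DDIT3, the pro-apoptotic factor CHOP, lay between 7.54 and 9.68 CPM in all libraries, with an averaged log2 difference of 0.04 (95% interval -0.15 to 0.23). For ATF3, an immediate stress factor, the difference was -0.03 (95% interval -0.26 to 0.20), and for ATF5 it was -0.07 (SE 0.0331, edgeR adjusted p 0.106). NUPR1, a stress-induced chromatin protein, had 16 counts in all 12 libraries together and was not tested.

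Among the 5 feedback and stress effectors 3 rose, TRIB3, DDIT4 and CHAC1, and PPP1R15A fell. Across all genes tested, 15% were called higher and 13.2% lower. TRIB3, a pseudokinase that restrains ATF4 and AKT, stood at 29.2, 23.8 and 24.6 CPM in control libraries, 23.9, 25.5 and 25.1 in ascites, 32.6, 29.9 and 33.0 with bezafibrate and 33.3, 25.8 and 29.8 with both. Within each medium the libraries did not overlap, although control replicate 1 lay above combination replicate 2. The averaged change was 0.28 (SE 0.057, edgeR adjusted p 2.24e-04). DDIT4, an inhibitor of the growth kinase complex mTORC1 also known as REDD1, stood at 27.6, 28.4 and 27.5 CPM in control libraries, 27.1, 27.01 and 26.3 in ascites, 29.2, 32.2 and 36.5 with bezafibrate and 32.2, 32.1 and 29.6 with both. Every library with the drug was above every library without it. Its averaged change was 0.23 (SE 0.0499, edgeR adjusted p 5.11e-04).

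PPP1R15A, known as GADD34, brings a phosphatase to eIF2 and so ends the response. It stood at 87.7, 91.8 and 90.5 CPM in control libraries, 83.9, 91.0 and 89.4 in ascites, 73.8, 77.6 and 79.6 with bezafibrate and 79.1, 87.7 and 76.9 with both. Without ascites the drug libraries lay wholly below the control, while in ascites combination replicate 2 overlapped the ascites libraries. Over both media the change was -0.17 (SE 0.0341, edgeR adjusted p 1.2e-04), from -0.23 without ascites and -0.12 in ascites (edgeR adjusted p 0.0912). The test of that difference did not call it. CHAC1, which degrades glutathione, was low at 4.29 to 6.19 CPM without the drug and 5.87 to 6.40 with it, and its averaged change of 0.28 (SE 0.106, edgeR adjusted p 0.0441) was lost in 12 of 18 alternatives. For SESN2, a leucine sensor that restrains mTORC1, the averaged difference was 0.01 (95% interval -0.13 to 0.15).

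Enzymes of serine and one-carbon metabolism rose in 3 of 6 cases (MTHFD2, PHGDH and SHMT2), each by less than 0.15 on the log2 scale. Beside this, 15% of all genes were called higher and 13.2% lower. MTHFD2, the mitochondrial folate enzyme that follows SHMT2, stood at 179, 173 and 178 CPM in control libraries, 174, 179 and 173 in ascites, 196, 192 and 190 with bezafibrate and 192, 178 and 200 with both. Combination replicate 2 lay among the libraries without the drug and the other 5 drug libraries lay above them. Over both media the rise was 0.12 (SE 0.0262, edgeR adjusted p 3.13e-04). PHGDH, the first enzyme of serine synthesis, lay between 103 and 107 CPM without the drug and between 107 and 115 with it, a change of 0.08 (SE 0.0287, edgeR adjusted p 0.0355). SHMT2, the mitochondrial enzyme that takes a carbon from serine, lay between 309 and 318 CPM without the drug and between 322 and 333 with it, a change of 0.06 (SE 0.0208, edgeR adjusted p 0.0367). PHGDH and SHMT2 showed no overlap between the 6 and 6 libraries, and each was called in 9 of 18 alternatives. PSAT1, the second serine enzyme, had a log2 difference of 0.06 at an edgeR adjusted p of 0.0545, and PSPH and ALDH1L2 had differences of 0.02 and 0.03 with intervals that held 0.

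Of 5 other enzymes of amino acid metabolism, 3 rose (ASNS, GPT2 and PCK2) and none fell, against 15% of all genes higher and 13.2% lower. ASNS (ENSG00000070669.17), asparagine synthetase and the classic ATF4 target, stood at 59.8, 62.6 and 62.3 CPM in control libraries, 62.9, 59.4 and 64.4 in ascites, 78.3, 78.3 and 69.0 with bezafibrate and 72.6, 71.8 and 76.7 with both. The highest library without the drug was below the lowest with it. The averaged change was 0.27 (SE 0.0364, edgeR adjusted p 2.11e-07). GPT2 (ENSG00000166123.14), the mitochondrial alanine aminotransferase, stood at 71.0, 66.0 and 65.4 CPM in control libraries, 67.4, 69.4 and 65.2 in ascites, 79.1, 79.5 and 82.6 with bezafibrate and 80.4, 79.0 and 76.1 with both. Its libraries with and without the drug were also wholly apart. Over both media the change was 0.24 (SE 0.0331, edgeR adjusted p 2.95e-07).

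PCK2, the mitochondrial PEP carboxykinase, stood at 29.2, 27.3 and 30.1 CPM in control libraries, 30.8, 31.1 and 29.8 in ascites, 32.2, 32.9 and 33.3 with bezafibrate and 33.8, 35.1 and 33.2 with both. Drug libraries did not overlap the others, and the averaged change was 0.17 (SE 0.0434, edgeR adjusted p 0.00272). Its RefSeq span overlaps that of NRL, so the counts of both genes may share reads. CTH and CBS, the transsulfuration enzymes that make cysteine, were low. CBS lay between 1.80 and 3.02 CPM, with an averaged log2 difference of 0.12 (95% interval -0.23 to 0.47). For CTH the difference was 0.13 (95% interval -0.11 to 0.37), the mean of -0.13 without ascites and 0.39 in ascites, of which neither was called.

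**Figure D2:**
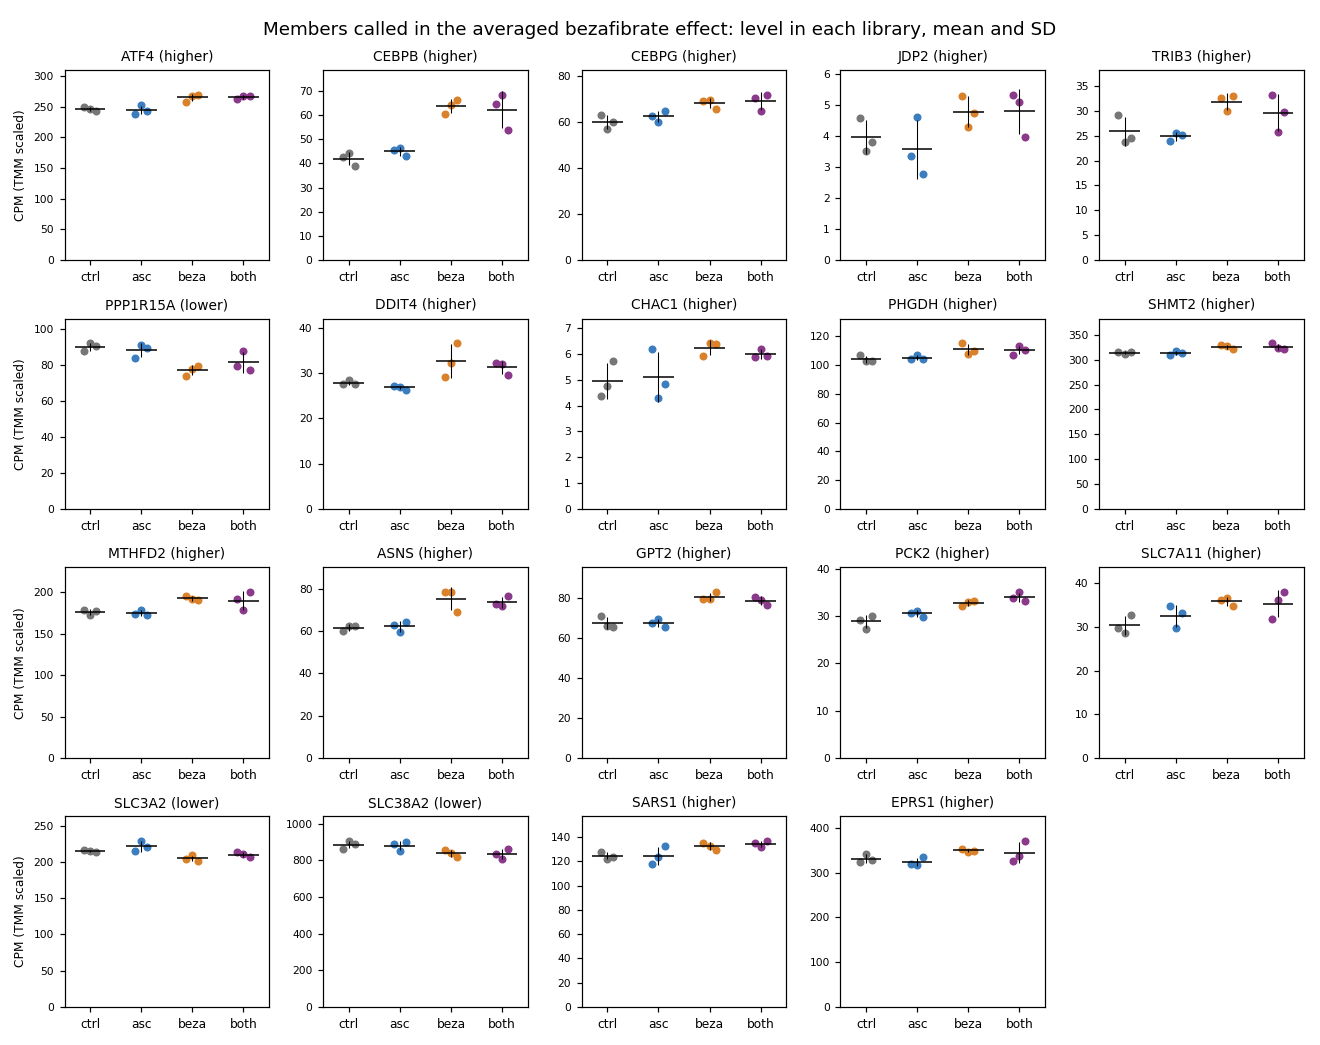
Level of the 19 members called in the averaged bezafibrate effect, as TMM-scaled CPM from 0, in each library of the control (ctrl), ascites (asc), bezafibrate (beza) and combination (both) groups. Points are libraries, horizontal lines are means and vertical lines SDs of 3. CEBPB, ASNS, GPT2 and DDIT4 show drug libraries wholly above the rest, PPP1R15A, SLC3A2 and SLC38A2 are lower with the drug, and the widest spread among combination libraries of CEBPB is due to replicate 3 at 53.7.

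Among the 6 transporters of amino acids, SLC7A11 rose, SLC3A2 and SLC38A2 fell and 3 were not called. With 15% of all genes called higher and 13.2% lower, the share that rose is near the background. So few genes give no result about the group. SLC7A11, the cystine importer xCT, stood at 29.7, 28.5 and 32.8 CPM in control libraries, 34.7, 29.7 and 33.1 in ascites, 36.2, 36.6 and 34.7 with bezafibrate and 31.8, 36.2 and 37.9 with both. Libraries were apart without ascites and overlapped in ascites. The averaged change was 0.18 (SE 0.0492, edgeR adjusted p 0.00585), from 0.25 without ascites and 0.11 in ascites (edgeR adjusted p 0.355). SLC38A2, the neutral amino acid importer SNAT2, stood at 863, 904 and 886 CPM in control libraries, 887, 853 and 899 in ascites, 857, 840 and 818 with bezafibrate and 832, 805 and 861 with both. Only combination replicate 3 and bezafibrate replicate 1 reached the range without the drug. Its averaged change was -0.08 (SE 0.0204, edgeR adjusted p 0.0031).

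SLC3A2, the heavy chain that carries SLC7A11 and SLC7A5 to the membrane, lay between 214 and 229 CPM without the drug and between 202 and 213 with it. These ranges did not overlap, and the averaged change was -0.07 (SE 0.0233, edgeR adjusted p 0.0189), which did not pass without ascites replicate 2 (edgeR adjusted p 0.0829). The averaged difference was -0.05 for the leucine carrier SLC7A5 (edgeR adjusted p 0.109), 0.02 for the cationic amino acid carrier SLC7A1 (95% interval -0.04 to 0.08) and -0.02 for the glutamine carrier SLC1A5 (95% interval -0.07 to 0.03).

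Genes of tRNA charging and export gave 2 calls. Of 7, SARS1 and EPRS1 rose and the others were not called, and neither medium alone gave a call. With 15% of all genes called higher and 13.2% lower, that count is near the background and is no result about the group. SARS1, which charges serine tRNA, stood at 128, 122 and 124 CPM in control libraries, 118, 123 and 132 in ascites, 136, 133 and 129 with bezafibrate and 135, 132 and 137 with both. Ascites replicate 3 reached the drug libraries. It rose by an average of 0.10 (SE 0.0288, edgeR adjusted p 0.0069). EPRS1, which charges glutamate and proline tRNAs, lay between 318 and 343 CPM without the drug and 326 and 371 with it, a change of 0.08 (SE 0.0256, edgeR adjusted p 0.0145). GARS1, WARS1, MARS1 and the tRNA exporter XPOT had log2 differences of 0.06, 0.06, 0.05 and 0.05 with edgeR adjusted p between 0.0647 and 0.103. For AARS1, which charges alanine tRNA, the difference was -0.01 (95% interval -0.06 to 0.05).

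Secreted factors gave no call. GDF15, a stress hormone that suppresses appetite, lay between 7.10 and 9.70 CPM without the drug and 7.85 and 11.8 with it, and its averaged log2 difference of 0.23 (SE 0.0896) just missed at an edgeR adjusted p of 0.0546. In 6 of 18 alternatives it was called. For STC2, a glycoprotein hormone, the difference was -0.01 (95% interval -0.08 to 0.06). FGF21, a fasting hormone of the liver that PPAR alpha also drives there, had 7 counts over the 12 libraries and was not tested.

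Ascites left the 40 genes without a called difference in either setting. Against control, no member passed edgeR's test and DESeq2 called 0. None reached an unadjusted edgeR p of 0.05, while 6.01% of all genes did. The background was also low, at 0.0882% of all genes, and the members' median was 0.0021 on the log2 scale. Log2 differences ran from -0.26 (CTH) to 0.18 (ATF3). On top of bezafibrate no member passed edgeR's test and DESeq2 called 0, against 0.128% of all genes called by edgeR. At an unadjusted edgeR p under 0.05 the members' share, 2.63%, was below the 4.79% of all genes and came from 1 member. This was ATF3, at 4.88, 5.27 and 4.95 CPM with bezafibrate and 6.69, 6.54 and 6.50 with both, a log2 difference of 0.38 (SE 0.14, edgeR adjusted p 0.791). Its combination libraries lay above the bezafibrate ones, and control and ascites libraries ran from 4.91 to 7.18 CPM, overlapping both groups.

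The question of whether the fluid altered the drug response was put to the interaction, the change with bezafibrate in ascites minus that without ascites. By edgeR no member passed, DESeq2 called 0, and of all genes tested edgeR called 0%. An unadjusted edgeR p under 0.05 was reached by 1 member (CTH), or 2.63%, against 3.57% of all genes. That share is below the background and is no result about the members. The differing lists of called members in both media therefore do not show that the media differ. Against control, the combination gave 8 members higher and 2 lower, beside 10.3% and 7.96% of all genes. Higher were ATF4, CEBPB, CEBPG, MTHFD2, ASNS, GPT2, PCK2 and SLC7A11, and lower were PPP1R15A and SLC38A2. This comparison shares its control libraries with the drug alone and its combination libraries with the drug in ascites. Without control replicate 2 the 10 became 5, and without combination replicate 3 they became 8. All genes called numbered 1280 higher and 993 lower in the main fit, 1811 without control replicate 2 and 2385 without combination replicate 3.

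Related genes from lists written from general knowledge, with earlier results of these data known, give the surroundings of the set, for the averaged drug effect. The background for each count is the 15% of all genes that were called higher and the 13.2% called lower. Of 21 further ATF4 target genes tested, 9 rose and none fell, with a median of 0.11 on the log2 scale. VLDLR, a lipoprotein receptor, is counted in the 9 but was known to have moved when the list was written, so its call adds no support. It rose by 2.49, from 12.4 ± 0.996 CPM in control to 68.2 ± 1.22 with bezafibrate (SD, n = 3). ADM2, a peptide hormone, rose by 0.84, SQSTM1, the autophagy receptor p62, by 0.69, and NIBAN1 by 0.62. Of 14 cytosolic tRNA synthetases outside the set 3 rose (CARS1 by 0.24, NARS1 by 0.12 and LARS1 by 0.07), none fell, and the median was 0.01, which is smaller than the shift of all genes under upper-quartile scaling (-0.0181). Of 17 mitochondrial synthetases 2 rose (MARS2 by 0.13 and HARS2 by 0.10), none fell, and the median was 0.06, so for these enzymes the share that rose was below the 15% of all genes.

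Upstream of ATF4, 6 of 17 genes rose and 1 fell, with a median of 0.05. OMA1, the mitochondrial protease that relays mitochondrial stress, rose by 0.28 (SE 0.0929, edgeR adjusted p 0.0187). GCN1, which activates the amino acid sensing kinase GCN2, rose by 0.21 (SE 0.0234, edgeR adjusted p 2.37e-09), from 436 ± 14.2 CPM in control to 501 ± 16.8 with bezafibrate (SD, n = 3). PPP1R15B, the constitutive partner of the eIF2 phosphatase, rose by 0.20, while its inducible relative PPP1R15A fell. EIF2AK3, the endoplasmic reticulum kinase PERK, rose by 0.14. The gene that fell was EIF2AK4, which encodes GCN2 itself, at -0.13 (SE 0.0299, edgeR adjusted p 6.43e-04) and was named after its value was seen. Among 16 genes of the ATF6 and XBP1 arms of the unfolded protein response, which do not run through ATF4, 7 rose and none fell, with a median of 0.07. XBP1 rose by 0.19, the chaperone HSPA5 by 0.18, SEL1L by 0.18 and CRELD2 by 0.14. None of these 5 lists had a called gene for ascites in either setting.

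**Figure D3:**
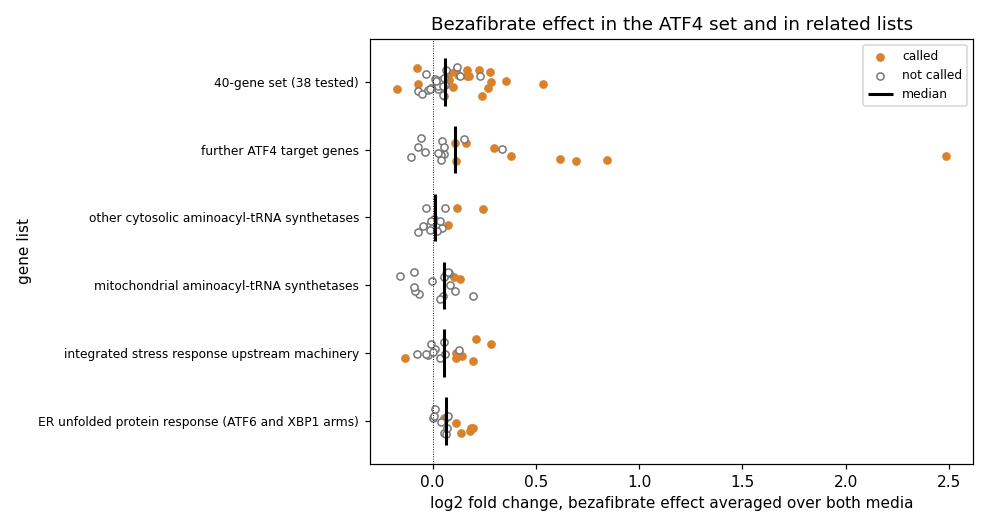
Log2 fold change with bezafibrate, averaged over both media, of each tested gene in the 40-gene set and in 5 related lists. Filled points are called at an edgeR adjusted p under 0.05 and black bars are medians. Medians lie between 0.01 for the other cytosolic synthetases and 0.11 for the further ATF4 targets, and VLDLR stands alone at 2.49.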

How the data were processed

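For each library the authors deposited whole-number counts per gene, with an Ensembl identifier joined to a symbol. Trimmomatic 0.39, STAR 2.7.9a, RSEM 1.3.3, DESeq2 1.28.1 and the build GRCh38 are named per the submitters' processing notes, without roles. The annotation release, strandedness and any rounding are not given in the sources used here, so reads of overlapping genes (6 members, ATF5, DDIT3, MARS1, MTHFD2, PCK2 and SHMT2, overlap another protein-coding gene in RefSeq) cannot be assigned with certainty.

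The members, gene lists and tests were chosen with earlier results of these data known. All called members were named, and of the 5 related lists at most 4 genes each, those called with the largest averaged change. EIF2AK4 was named beside them because it was the only upstream gene that fell. Cell type markers and PPAR targets were named as checks, called or not.

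Genes were filtered with filterByExpr (minimum count 10, minimum total 15), which kept 12470 and removed 7207, and scaled by TMM in edgeR 4.0.16 (R 4.3.3). A robust quasi-likelihood fit with 1 mean per group over 12 libraries had 8 residual degrees of freedom. Standard errors come from the log2 change and the F statistic (absolute change over the root of F), and 95% intervals use 8 degrees of freedom. The test also borrows spread from other genes, so these intervals are wider than its p-values imply. For CHAC1 without ascites the unadjusted edgeR p was 0.0279, and the interval of -0.0021 to 0.681 held 0. Each library counted as 1 sample. Replicate pairs differed by more than sampling noise (chi-square per degree of freedom 1.45 to 4.45), which cannot show whether they were separate cultures. Alternatives were RLE and upper-quartile scaling, no filter and a stricter filter (50 counts in 3 libraries), DESeq2 1.42.0, only the groups compared, a replicate block, and leaving out each library.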

Additional observations from a re-analysis of the deposited data

Results flagged for a closer look

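CTH, the transsulfuration enzyme cystathionine gamma-lyase, lay on opposite sides of its reference libraries with ascites, depending on the drug. It stood at 5.18, 5.36 and 5.55 CPM in control libraries and 4.49, 4.22 and 4.71 in ascites, so every ascites library was lower. With bezafibrate it stood at 5.31, 4.84 and 4.53 CPM and with both at 5.69, 6.54 and 5.49, so every combination library was higher. The interaction was 0.52 on the log2 scale (SE 0.207), with an unadjusted edgeR p of 0.0166 and an edgeR adjusted p of 0.999 over all genes tested. The difference thus failed the correction. Of all genes tested 3.57% had an unadjusted edgeR p under 0.05 for the interaction, beside 2.63% of the members.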

How the results depend on the processing

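No called member changed direction in any of the 7 alternatives that kept all libraries or the 12 that left out 1. For the averaged drug effect, 14 of the 19 called members were called in all 18 alternatives that apply. For the drug without ascites 4 of 11 were (ASNS, PPP1R15A, GPT2 and CEBPB), for the drug in ascites 3 of 8 (ASNS, GPT2 and CEBPB), and for the combination against control 4 of 10. DESeq2 called 5 members in ascites in place of 8, and a fit of only the 2 groups compared called 6 in place of 10 for the combination against control. Over all genes tested the same fits gave 1743 and 1886 calls. In these cases the cause was not tested. Leaving out 1 library gave 5 to 15 members for the drug without ascites, 3 to 8 for the drug in ascites and 5 to 11 for the combination against control, with fewer libraries in the fit. Over all genes the ranges were 1761 to 2556, 1742 to 2188 and 1791 to 2385 calls. Scaling moved the median of all genes by at most -0.0182 (upper-quartile).

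Replicate numbers did not pair the libraries. Deviations of the 18 same-numbered pairs correlated between -0.135 and 0.0613, with 0 over 0.1, and 1 of 12 libraries was closest to its own number. With the replicate block 18 members were called for the averaged effect, 11 without ascites, 7 in ascites and 12 over the 4 groups. Over all genes it gave 3453 calls for the averaged effect, 2145 without ascites and 2154 in ascites.

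Depth limits the low members: NUPR1 and FGF21 could not be tested, and JDP2, CHAC1, CTH and CBS, all under 7 CPM, had standard errors over 0.1.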
